A study of Mus musculus with 12 samples.

Results

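Matrix metalloproteinases (MMPs), the related ADAM and ADAMTS proteases, and the tissue inhibitors of metalloproteinases (TIMPs) were followed across isolated mouse cardiomyocytes. The genes were chosen by a rule on names, with earlier results of these data known. The rule took every row of the deposited count table whose symbol begins with Mmp, Timp, Adamts or Adam followed by a digit. This gave 58 of 22584 genes: 18 MMPs, 17 ADAMTSs, 19 ADAMs and 4 TIMPs. Of these, 45 had enough reads to be tested (14 MMPs, 15 ADAMTSs, 12 ADAMs and 4 TIMPs).

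Hearts came from wild-type C57BL6 mice, and all libraries were made from polyadenylated RNA of isolated heart cardiomyocytes. The CKD JV001 mice had the chronic kidney disease (CKD) model, which combined AngII, a high salt diet and the removal of a kidney, for 12 weeks, and were injected with JV001. The CKD saline mice had the same model with a saline injection, and the labels give no duration for them. The sham JV001 and sham saline mice had a sham operation, over 12 weeks, with JV001 or with saline. JV001 is known here by its code name alone, and the series title refers to the recapping of telomeres in cardiorenal disease, by means of gene therapy. Each of the 4 groups had 3 libraries. Nothing in the labels says that these were separate animals, so each p-value measures the spread between libraries, which may be technical.

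MMPs are zinc-dependent proteases that are made as inactive precursors and cut collagens, proteoglycans and other matrix proteins once activated. ADAMs are membrane proteases that shed growth factors, cytokines and receptors from the cell surface, and ADAMTSs are their secreted relatives, which trim procollagens and cut proteoglycans. TIMPs bind and block the active sites of these enzymes. In the heart, fibroblasts, endothelial cells and immune cells are major sources of several of these enzymes, and the balance of proteases and TIMPs is studied as a part of scarring and chamber remodelling.

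Library totals ran between 25233561 and 37000337 counts. Summed expression of 12 ventricular cardiomyocyte markers was 28671 to 63717 CPM (reads scaled to library size) in CKD JV001, 57479 to 103432 CPM in CKD saline, 92641 to 100502 CPM in sham JV001 and 85134 to 115240 CPM in sham saline. Libraries also held RNA of other cell types. The sum of 12 fibroblast markers was 2991 to 3945 CPM in CKD JV001, 660 to 2573 CPM in CKD saline, 647 to 1351 CPM in sham JV001 and 319 to 1219 CPM in sham saline. Library 3 of CKD JV001, library 3 of CKD saline and library 1 of sham saline stood apart from the others of their groups, with a chi-square of 253 to 479 per degree of freedom against them over 10249 genes. The 6 other pairs within groups had 9.51 to 55.0. CKD saline libraries 1 and 2 were the most alike of the 12 pairs, at 9.51. They differed by more than counting noise and were counted as 2 libraries.

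The 58 genes together took a small share of each library. This share was 0.133%, 0.145% and 0.295% of counts in CKD JV001 libraries 1 to 3, and 0.0700%, 0.0702% and 0.149% in CKD saline. It was 0.109%, 0.120% and 0.0852% in sham JV001 and 0.0991%, 0.0698% and 0.0709% in sham saline. CKD JV001 library 3 was the highest of the 12 libraries for 29 of the 45 tested genes. It lay above libraries 1 and 2 of its group in 34 of 45 genes and below both in 10, where 49.2% of all genes lay below both. The shares of all genes in which it was the highest of the 12 libraries, or above libraries 1 and 2, were not counted. Whether the counts of 29 and 34 are particular to these genes was therefore not tested. CKD saline library 3 lay above its libraries 1 and 2 in 32 of 45, against 45.6% of all genes. Sham saline library 1 lay above its libraries 2 and 3 in 31 of 45, against 42.5% of all genes.

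Summed by family on the scale of FPKM (fragments scaled to gene length and library size), which allows levels of different genes to be compared, TIMPs exceeded MMPs in all libraries but sham saline library 2. The TIMP sum was 141, 147 and 348 FPKM in CKD JV001 libraries 1 to 3, 51.0, 48.0 and 152 FPKM in CKD saline, 116, 111 and 77.8 FPKM in sham JV001, and 71.6, 37.6 and 44.2 FPKM in sham saline. CKD JV001 libraries 1 and 2 lay close to CKD saline library 3 and well above CKD saline libraries 1 and 2. The MMP sum was 57.4, 64.4 and 93.4 FPKM in CKD JV001, 28.4, 30.2 and 61.5 FPKM in CKD saline, 35.8, 45.3 and 35.8 FPKM in sham JV001, and 49.7, 39.5 and 38.3 FPKM in sham saline. The ratio of the TIMP sum to the MMP sum was 2.46, 2.28 and 3.73 in CKD JV001, 1.80, 1.59 and 2.48 in CKD saline, 3.25, 2.45 and 2.17 in sham JV001, and 1.44, 0.953 and 1.15 in sham saline. Each sham JV001 library thus had a higher ratio than each sham saline library, whereas CKD JV001 and CKD saline overlapped.

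**Figure D1:**
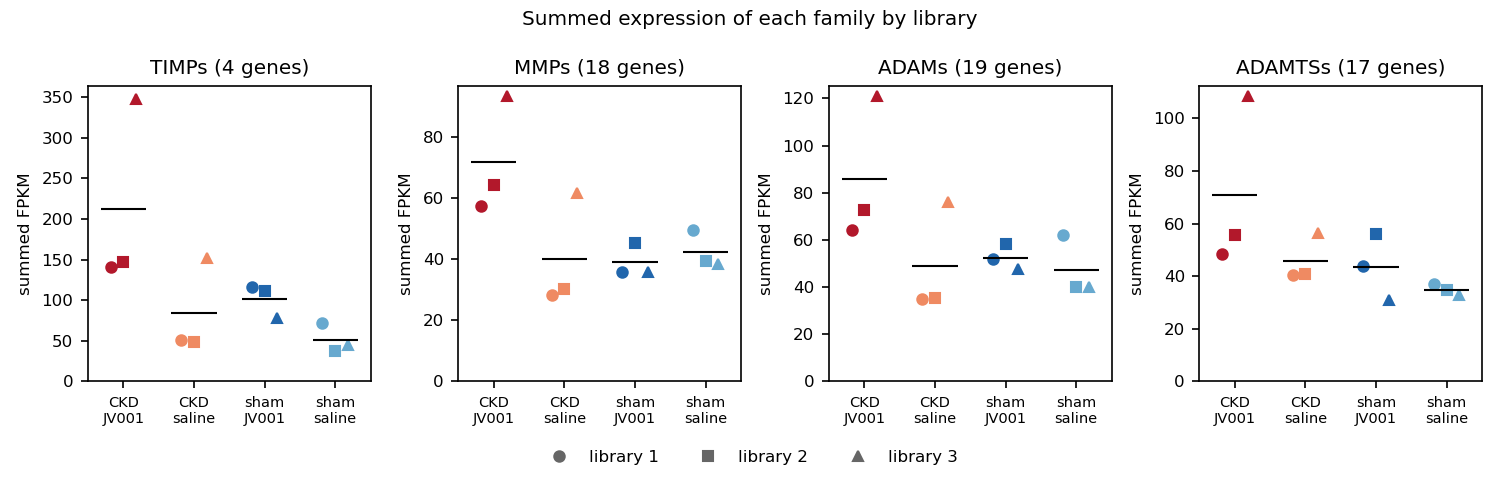
Summed FPKM of the TIMP, MMP, ADAM and ADAMTS genes in each of the 12 libraries (points, shaped by library number) with the group mean (bar). Library 3 of both CKD groups lies highest in its group in every panel, at 348 FPKM for TIMPs in CKD JV001 and 152 FPKM in CKD saline.

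By mean FPKM over the 12 libraries the order of levels was Timp3 (69.4), Adamts1 (30.8), Timp2 (26.6), Adam15 (22.3), Mmp15 (21.6), Timp4 (14.1), Adam9 (12.2), Mmp2 (11.3), Adam17 (7.80), Adam10 (7.32), Adamts10 (5.17), Mmp14 (4.54) and Adamts9 (3.99). Neighbours in this order overlapped across libraries. Timp3 alone made up 43.2% to 74.6% of the TIMP sum. Mmp15 made up 15.3% to 75.8% of the MMP sum, lowest in CKD JV001 library 3 and highest in sham saline library 3.

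In a test of each gene across all 15004 genes by edgeR's quasi-likelihood method, with Benjamini-Hochberg adjustment and a threshold of 0.05, 0 of the 45 genes passed in any of the 5 comparisons. In CKD JV001 against CKD saline, the comparison of JV001 and saline within the CKD model, 0% of all genes passed, and the smallest adjusted p among the 45 genes was 0.276. At an unadjusted p under 0.05, 12 of the 45 genes were higher and 1 was lower, against 9.29% and 8.75% of all genes. In TMM-scaled CPM the libraries of the groups did not overlap for 7 higher genes and 1 lower gene, against 8.21% and 6.04% of all genes. The median log2 fold change of the 45 genes was 0.81, with 39 positive and 6 negative, and that of all genes tested was 0.02. By family, the median was 1.22 for TIMPs, 1.31 for MMPs, 0.96 for ADAMTSs and 0.58 for ADAMs.

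The result of that comparison depended on CKD saline library 3 and on the fit. Without it, edgeR called 19 of the genes (18 higher, 1 lower) among 3287 of all genes, or 21.3%, and the median was 1.66. Without library 3 of both CKD groups it called 13 (12 higher, 1 lower) among 3043 genes, or 19.9%, with a median of 0.89, and without CKD JV001 library 3 it called 0, with a median of 0.50. A limma voom fit that gave each library a quality weight called 26 (22 higher, 4 lower) where 44.9% of all genes passed. DESeq2 called 0, where 0.277% of all genes passed. Each fit without CKD saline library 3 takes the spread of that group from libraries 1 and 2, the closest pair. CKD JV001 libraries 1 and 2 both lay above CKD saline libraries 1 and 2 in 29 of the 45 genes and below both in 8, against 38.2% and 34.3% of all genes. With CKD saline library 3 kept, they lay above CKD saline libraries 1, 2 and 3 in 9 of the 45, against 12.4% of all genes.

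Same-numbered libraries of the 2 CKD groups deviated together from their group means, with correlations of 0.296, 0.289 and 0.492 for numbers 1 to 3 over 15004 genes. Library 3 stood apart in both groups, which enters all 3 correlations, and the labels name no shared litter, batch or day. A fit of these 6 libraries with the number as a block, added after seeing the data, called 15 of 44 tested genes by edgeR (14 higher, 1 lower) where 19.9% of all genes passed, with a median of 1.14. The same block in the fit of all 12 libraries called 0. In the first of these fits the TIMPs called were Timp1, Timp2 and Timp3, with adjusted p of 0.0382, 0.0279 and 0.0113 by edgeR. The MMPs called were Mmp2, Mmp3, Mmp9, Mmp13, Mmp14 and Mmp19 as higher and Mmp15 as lower, and the others were Adamts2, Adamts9, Adam10, Adam15 and Adam17. Timp3 had a log2 fold change of 1.27 (SE 0.11) there, and its CPM in CKD JV001 over that in CKD saline was 2.32, 2.19 and 2.69 for numbers 1 to 3. In 24 of the 45 genes CKD JV001 lay above CKD saline for all 3 numbers, against 27.7% of all genes.

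Markers of other cell types moved with this comparison. All 12 fibroblast markers had a positive log2 fold change, with a median of 1.36, and 9 had an unadjusted p under 0.05. Macrophage markers had 11 of 11 positive with a median of 1.496, smooth muscle and pericyte markers 9 of 10 with a median of 1.06, and endothelial markers 9 of 10 with a median of 0.66. The 12 ventricular markers were all negative, with a median of -0.74. The macrophage sum was 330 to 746 CPM in CKD JV001, 68.5 to 345 CPM in CKD saline, 59.4 to 204 CPM in sham JV001 and 28.4 to 98.3 CPM in sham saline. The endothelial sum was 2701 to 3364 CPM in CKD JV001, 1036 to 3485 CPM in CKD saline, 1428 to 1688 CPM in sham JV001 and 491 to 1780 CPM in sham saline. None of the fibroblast, endothelial or macrophage markers was at 0 in any library. For CKD JV001 over sham JV001, fibroblast markers had 12 of 12 positive with a median of 1.62, macrophage markers 11 of 11 with 1.94 and endothelial markers 10 of 10 with 1.04, and the 12 ventricular markers were all negative with -0.77. In CKD saline against sham saline, 11 of 12 fibroblast, 10 of 10 endothelial and 11 of 11 macrophage markers were positive, with medians of 0.68, 0.89 and 1.31, and 10 of 12 ventricular markers were negative. In sham JV001 against sham saline the same lists had 11, 10 and 11 positive markers, with medians of 0.31, 0.46 and 0.85, and 11 of 12 ventricular markers were negative. Atrial cardiomyocyte markers were 7 of 7 positive in CKD JV001 against CKD saline (median 1.85), and epicardial markers 8 of 8 (1.49). In CKD saline against sham saline, 6 of 7 atrial and 7 of 8 epicardial markers were negative (medians -2.79 and -1.05). In CKD JV001 against sham JV001, 6 of 7 atrial markers were negative and 8 of 8 epicardial markers positive (-0.92 and 0.94). In sham JV001 against sham saline, 5 of 7 and 6 of 8 were negative. The part of these cells in the values below was not tested. In such bulk libraries fewer cells of a type and less RNA per cell cannot be told apart.

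**Figure D2:**
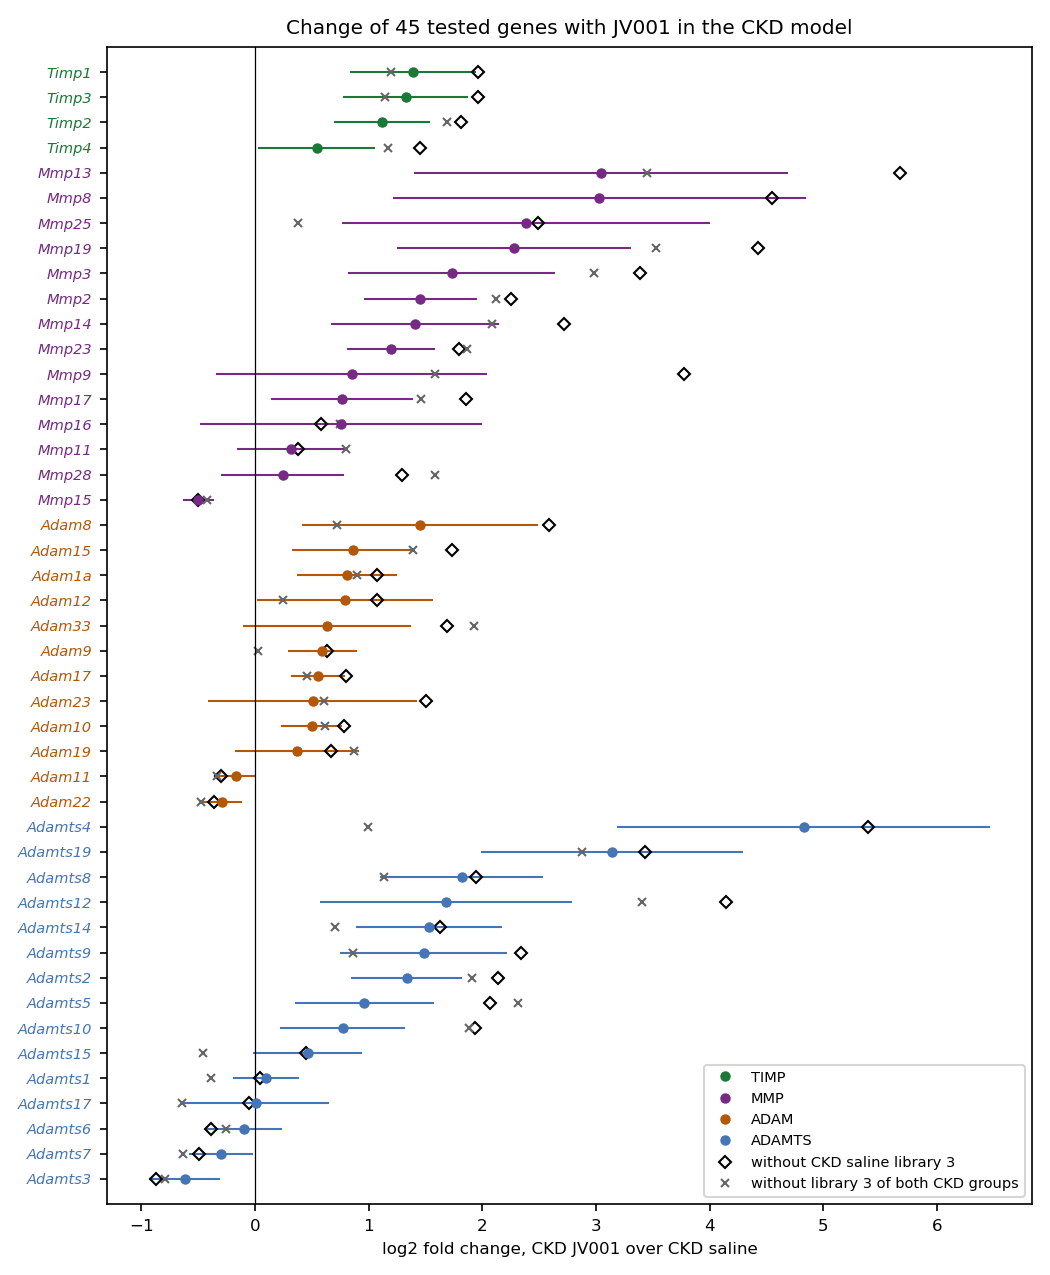
Log2 fold change of the 45 tested genes in CKD JV001 over CKD saline (points, with bars of 1 standard error), beside the values without CKD saline library 3 (diamonds) and without library 3 of both CKD groups (crosses). Most genes lie to the right of 0, Mmp15 lies at -0.50 with both alternatives close by, and the Adamts4 cross (0.99) lies far from its point (4.83). Mmp8 has no cross, since its counts did not pass the filter of that fit.

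In CKD saline against sham saline, the effect of the CKD model without JV001, 0% of all genes passed and the smallest adjusted p of the 45 genes was 0.61 by edgeR. At an unadjusted p under 0.05, 2 were higher and 4 lower, against 2.15% and 2.81% of all genes. The groups did not overlap in 2 higher and 4 lower genes, against 4.12% and 6.43%. The median log2 fold change was 0.26 (29 positive, 16 negative), against 0.01 over all genes, and it was -0.20 without CKD saline library 3 and 0.56 without sham saline library 1. DESeq2 called Adam11 as lower, where 0.282% of all genes passed, and voom called 0, where 0.0333% passed.

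In sham JV001 against sham saline, the effect of JV001 without the CKD model, 0% of all genes passed and the smallest adjusted p was 1 by edgeR. At an unadjusted p under 0.05, 2 were higher and 1 lower, against 1.61% and 1.23% of all genes. The groups did not overlap in 7 higher and 2 lower genes, against 5.7% and 6.7%. The median was 0.20 (32 positive, 13 negative), against -0.01 over all genes, and leaving out sham saline library 1 gave 0.69, and leaving out sham JV001 library 2 gave 0.02. DESeq2 called 0, where 0.00894% of all genes passed, and voom called Timp4 as higher, where 0.0666% passed.

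In CKD JV001 against sham JV001, the effect of the CKD model under JV001, edgeR called 3 of all genes, or 0.02%, and none of the 45, whose smallest adjusted p was 0.0818. At an unadjusted p under 0.05, 12 were higher and 4 lower, against 14.8% and 12.7% of all genes. The groups did not overlap in 14 higher and 4 lower genes, against 22.9% and 20.1%. The median was 0.82 (36 positive, 9 negative), against 0.02 over all genes, and it was 0.35 without CKD JV001 library 3. Other fits called more: DESeq2 called 9 (6 higher, 3 lower) where 12.6% of all genes passed, and voom 16 (12 higher, 4 lower) where 29.6% passed. A fit of the 2 groups alone called 5 (all higher) with 5.51% of all genes, and edgeR without CKD saline library 3, which serves there to estimate the spread, called 10 (7 higher, 3 lower) with 10.4%. This comparison and that of CKD JV001 with CKD saline share the CKD JV001 libraries.

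The interaction of CKD and JV001, which asks whether JV001 shifted a gene by more in the CKD model than in sham mice, gave 0 called genes of the 45 and 0% of all genes by edgeR, with a smallest adjusted p of 0.84. At an unadjusted p under 0.05, 3 were positive and 1 negative, against 2.09% and 1.69% of all genes. DESeq2 and voom also called 0, where 0% and 0.133% of all genes passed. A response to JV001 in one kind of mouse and not in the other was thus not shown for any gene named here.

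All TIMPs had higher group means in CKD JV001 than in CKD saline, and Timp3 and Timp4 had higher values in every sham JV001 library than in any sham saline library. Timp3, the TIMP that binds to the matrix and also blocks Adam17, had 79.4, 81.7 and 260 FPKM in CKD JV001 libraries 1 to 3, 31.0, 30.7 and 89.4 FPKM in CKD saline, 76.1, 63.8 and 42.0 FPKM in sham JV001, and 37.6, 16.2 and 25.1 FPKM in sham saline. CKD JV001 library 3 held more than 3 times the level of any other CKD JV001 library, and CKD saline library 3 lay above CKD JV001 libraries 1 and 2. Its log2 fold change was 1.33 (SE 0.55, adjusted p 0.276 by edgeR) in CKD JV001 against CKD saline, with values between 0.54 and 1.97 as each library was left out, and 1.20 (SE 0.55, adjusted p 1 by edgeR) in sham JV001 against sham saline.

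Timp2, which both inhibits MMPs and helps Mmp14 to activate Mmp2, separated CKD JV001 from CKD saline. It had 43.7, 46.9 and 55.5 FPKM in CKD JV001, 12.8, 10.9 and 37.1 FPKM in CKD saline, 14.9, 28.9 and 15.8 FPKM in sham JV001, and 23.2, 16.8 and 12.8 FPKM in sham saline. The mean was 48.7 ± 6.14 FPKM in CKD JV001, 20.3 ± 14.6 FPKM in CKD saline, 19.9 ± 7.86 FPKM in sham JV001 and 17.6 ± 5.25 FPKM in sham saline (SD, n = 3), so CKD JV001 lay above the 3 other groups, which overlapped one another. By edgeR its log2 fold change was 1.12 (SE 0.42, adjusted p 0.276) against CKD saline and 1.21 (SE 0.42, adjusted p 0.122) against sham JV001. The first value was 1.81 without CKD saline library 3 (adjusted p 0.0326) and 1.69 without library 3 of both CKD groups (adjusted p 0.0203). It was 0.85 without CKD saline library 2, where 0 of the genes passed. CKD saline against sham saline gave 0.24, and -0.43 without CKD saline library 3.

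Timp4, the TIMP most restricted to heart and vessels, was higher with JV001 in sham mice. It had 23.9, 16.6 and 19.2 FPKM in sham JV001 and 9.79, 3.73 and 5.65 FPKM in sham saline. The groups did not overlap, and the log2 fold change was 1.63 (SE 0.53, unadjusted p 0.00993, adjusted p 1 by edgeR), with values between 1.36 and 2.14 as each library was left out. In the CKD model Timp4 had 15.6, 15.0 and 24.9 FPKM in CKD JV001 and 6.27, 5.33 and 23.1 FPKM in CKD saline. These groups overlapped because of CKD saline library 3, and the log2 fold change of 0.54 (SE 0.51) was 1.45 without that library (adjusted p 0.0388 by edgeR). It was 0.23 without CKD saline library 2. The interaction for Timp4 was -1.09 (SE 0.73, adjusted p 0.84 by edgeR).

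Timp1, a secreted TIMP that inflammatory signals induce, was the least abundant. It had 2.43, 3.01 and 8.19 FPKM in CKD JV001, 0.925, 1.07 and 2.67 FPKM in CKD saline, 1.32, 1.66 and 0.722 FPKM in sham JV001, and 1.02, 0.851 and 0.729 FPKM in sham saline. Every CKD JV001 library lay above every sham library, while CKD saline library 3 lay between CKD JV001 libraries 1 and 2. By edgeR the log2 fold change was 1.39 (SE 0.55, adjusted p 0.276) against CKD saline and 1.78 (SE 0.56, adjusted p 0.11) against sham JV001, which became 0.66 and 1.05 without CKD JV001 library 3. Timp1, Timp3 and Timp4 lie inside synapsin genes, and the strand setting of the counting was not given in the sources used here, so reads of the overlapping genes cannot be separated.

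**Figure D3:**
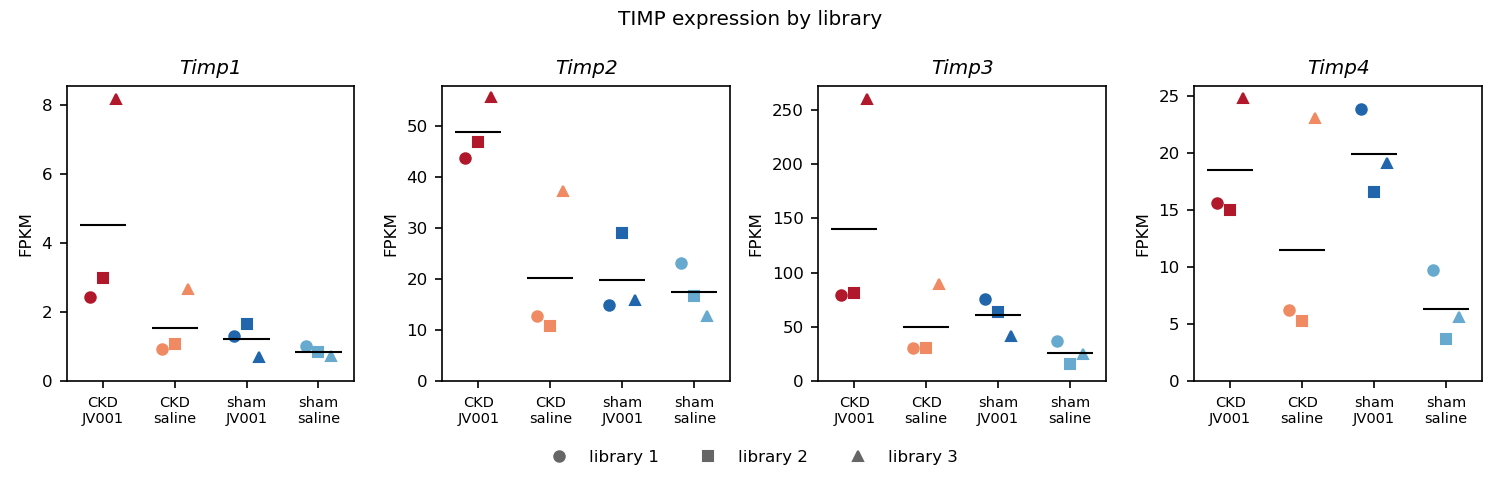
FPKM of Timp1, Timp2, Timp3 and Timp4 in each of the 12 libraries (points, shaped by library number) with the group mean (bar), on axes that start at 0. Timp2 has its 3 CKD JV001 libraries at 43.7 to 55.5 FPKM, above all others, and Timp4 has its sham JV001 libraries at 16.6 to 23.9 FPKM, above all sham saline libraries.

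Of the gelatinases, which cut denatured collagen and basement membrane collagen, Mmp2 was the more abundant and was higher in all CKD JV001 libraries than in all others. It had 19.4, 22.8 and 26.6 FPKM in CKD JV001, 3.81, 4.37 and 14.5 FPKM in CKD saline, 9.18, 10.2 and 5.33 FPKM in sham JV001, and 9.31, 6.13 and 3.47 FPKM in sham saline. The mean was 22.9 ± 3.60 FPKM in CKD JV001, 7.57 ± 6.03 FPKM in CKD saline, 8.25 ± 2.59 FPKM in sham JV001 and 6.30 ± 2.92 FPKM in sham saline (SD, n = 3). EdgeR's log2 fold change was 1.46 (SE 0.50, adjusted p 0.276) against CKD saline, 2.26 without CKD saline library 3 (adjusted p 0.0326) and 1.35 without CKD JV001 library 3 (adjusted p 0.672). Against sham JV001 it was 1.38 (SE 0.50, adjusted p 0.129 by edgeR). Mmp2 made up 33.8%, 35.5% and 28.5% of the MMP sum in CKD JV001, 13.4%, 14.5% and 23.6% in CKD saline, 25.7%, 22.6% and 14.9% in sham JV001, and 18.7%, 15.5% and 9.04% in sham saline.

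Mmp9, the gelatinase that neutrophils and macrophages store or secrete, followed single libraries. It had 0.517, 0.488 and 5.75 FPKM in CKD JV001, 0.126, 0.156 and 3.19 FPKM in CKD saline, 0.200, 0.213 and 0.136 FPKM in sham JV001, and 0.380, 0.170 and 0.0920 FPKM in sham saline. Library 3 of each CKD group was far above its libraries 1 and 2. The value of 0.85 on the log2 scale in CKD JV001 against CKD saline became -1.29 without CKD JV001 library 3 and 3.77 without CKD saline library 3, so its direction rested on those libraries. The block by number in the CKD groups gave 1.27 (adjusted p 0.0344 by edgeR). That block was added after seeing the data, the labels name no pairing, and the block over all 12 libraries called 0 genes.

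Mmp14, the membrane-anchored MMP that activates the Mmp2 precursor, had 6.47, 5.83 and 16.0 FPKM in CKD JV001, 1.27, 1.19 and 7.28 FPKM in CKD saline, 2.55, 3.80 and 2.04 FPKM in sham JV001, and 5.03, 1.98 and 1.11 FPKM in sham saline. CKD JV001 lay above all sham libraries, and CKD saline library 3 lay above CKD JV001 libraries 1 and 2. Its log2 fold change against CKD saline was 1.41 (SE 0.74, adjusted p 0.292 by edgeR), 2.72 without CKD saline library 3 (adjusted p 0.0363) and 0.81 without CKD JV001 library 3.

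Mmp15, another membrane-anchored MMP and the most abundant MMP by mean FPKM, went the other way. It had 16.0, 18.9 and 14.3 FPKM in CKD JV001, 19.2, 20.3 and 22.0 FPKM in CKD saline, 18.5, 23.0 and 23.0 FPKM in sham JV001, and 27.7, 27.0 and 29.1 FPKM in sham saline. All CKD JV001 libraries lay below all CKD saline libraries, and sham saline lay above the 3 other groups without overlap. The mean was 16.4 ± 2.29 FPKM in CKD JV001, 20.5 ± 1.39 FPKM in CKD saline, 21.5 ± 2.62 FPKM in sham JV001 and 27.9 ± 1.03 FPKM in sham saline (SD, n = 3). By edgeR, its log2 fold change was -0.50 (SE 0.13, adjusted p 0.276) in CKD JV001 against CKD saline, -0.36 (SE 0.13, adjusted p 0.941) in CKD saline against sham saline, -0.38 (SE 0.13, adjusted p 1) in sham JV001 against sham saline and -0.48 (SE 0.13, adjusted p 0.0965) in CKD JV001 against sham JV001. As each library was left out, the first stayed between -0.58 and -0.40 and the second between -0.38 and -0.32. Mmp15 was thus negative in these 4 comparisons, which share groups, and did not pass the threshold in any by the fit of all 12 libraries. The block by number in the CKD groups, which was added after seeing the data, gave -0.49 (adjusted p 0.033 by edgeR) for the first.

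Among the other MMPs, Mmp23, which carries a cysteine array in place of the usual haemopexin domain, had 3.58, 4.43 and 3.36 FPKM in CKD JV001, 0.786, 1.06 and 2.62 FPKM in CKD saline, 1.07, 1.32 and 0.908 FPKM in sham JV001, and 1.38, 1.16 and 0.863 FPKM in sham saline. All CKD JV001 libraries were above all others. Its log2 fold change by edgeR was 1.20 (SE 0.39, adjusted p 0.276) against CKD saline and 1.69 (SE 0.39, adjusted p 0.0883) against sham JV001, with 1.26 (SE 0.54, adjusted p 0.84) for the interaction. Without CKD saline library 3 the first 2 values were 1.80 (adjusted p 0.0326) and 1.70 (adjusted p 0.0156). The first was 0.92 without CKD saline library 1, where 0 of the genes passed in that comparison.

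Mmp17, a lipid-anchored MMP, had its lowest mean in sham saline. It had 0.831, 0.741 and 1.51 FPKM in CKD JV001, 0.245, 0.240 and 1.17 FPKM in CKD saline, 0.425, 0.577 and 0.451 FPKM in sham JV001, and 0.330, 0.0966 and 0.145 FPKM in sham saline. EdgeR gave a log2 fold change of 1.54 (SE 0.65, adjusted p 0.941) in CKD saline against sham saline, or 0.48 without CKD saline library 3, and 1.32 (SE 0.65, adjusted p 1) in sham JV001 against sham saline. Mmp19, a widely expressed MMP that cuts basement membrane proteins, had 1.01, 0.901 and 3.37 FPKM in CKD JV001 and 0.0794, 0.0603 and 0.871 FPKM in CKD saline. Its log2 fold change was 2.28 (SE 1.03, adjusted p 0.277 by edgeR), and CKD saline library 3 came close to CKD JV001 libraries 1 and 2. Leaving out CKD saline library 3 gave 4.43 (adjusted p 0.0348 by edgeR), leaving out library 3 of both CKD groups gave 3.53 (adjusted p 0.0311), and leaving out CKD JV001 library 3 gave 1.41. The block by number in the CKD groups, which was added after seeing the data, gave 2.85 (adjusted p 0.0179 by edgeR). Mmp28, the MMP called epilysin, was the reverse within CKD JV001: library 3, at 1.12 FPKM, lay below libraries 1 and 2, at 2.44 and 2.69 FPKM.

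Mmp8 and Mmp13 are collagenases, which cut intact fibrillar collagen, and Mmp3 is a stromelysin that also activates other MMP precursors. Among the genes followed here, they are neighbours of Mmp12 and Mmp27 on chromosome 9, in the order Mmp13, Mmp12, Mmp3, Mmp8, Mmp27. Genes outside this set were not placed. The 100 bases before the start of 4 of them are shown because these genes lie together and 3 of them were highest in the same library. They are RefSeq sequence of the build GRCm38.p6, plus strand, whereas the counts used GRCm39. Capitals mark the AP-1 motif TGAGTCA or its reverse complement TGACTCA, the sequence bound by Fos and Jun proteins.
Mmp13, chr9:7272414-7272513: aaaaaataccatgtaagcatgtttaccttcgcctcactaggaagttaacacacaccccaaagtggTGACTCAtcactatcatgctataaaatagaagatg
Mmp12, second start, chr9:7347274-7347373: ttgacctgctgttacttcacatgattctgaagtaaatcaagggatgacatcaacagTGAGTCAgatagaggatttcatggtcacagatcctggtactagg
Mmp3, chr9:7445722-7445821: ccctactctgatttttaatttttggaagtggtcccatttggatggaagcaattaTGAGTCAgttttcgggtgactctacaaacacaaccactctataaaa
Mmp8, chr9:7558329-7558428: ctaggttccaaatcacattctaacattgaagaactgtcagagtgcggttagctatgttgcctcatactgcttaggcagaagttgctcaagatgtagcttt
The motif begins 35 bases before the start in Mmp13, 44 in Mmp12 and 46 in Mmp3. These letters are not in the Mmp8 window, nor in the 100 bases before the first Mmp12 start, at chr9:7344297-7344396. Over 250 upstream bases on both strands it was found in 4.46% of 32851 promoters and in 4 of the 39 promoters of the genes that matched the table, those of Mmp3, Mmp12, Mmp13 and Adam19. The Ets-type motif AGGAAG (reverse complement CTTCCT) was found in 29.5% of promoters and in 14 of the 39, and TATAAA in 12.4% and in 4 of the 39. These matches describe the letters in the window and say nothing of binding.

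Mmp8 had 7, 2 and 797 reads in CKD JV001 libraries 1 to 3, 15, 4 and 56 reads in CKD saline, 0, 4 and 0 reads in sham JV001, and 0 reads in each sham saline library. CKD JV001 library 3 thus held most of its reads. Against the 3 counts per library that a count of 0 allows, 0.0845 CPM on average, the CKD saline mean of 0.970 CPM was at least 11.5-fold higher than sham saline, a limit that covers counting error alone. Without CKD saline library 3 the mean was 0.344 CPM and the limit 4.06-fold. Mmp13 had 13, 16 and 168 reads in CKD JV001, 0, 2 and 16 in CKD saline, 46, 4 and 2 in sham JV001, and 3, 12 and 0 in sham saline. Mmp3 had 3.21, 4.46 and 7.34 FPKM in CKD JV001, 0.610, 0.215 and 3.34 FPKM in CKD saline, 0.862, 2.21 and 0.544 FPKM in sham JV001, and 1.89, 0.450 and 0.405 FPKM in sham saline. For Mmp3, unlike Mmp8, all CKD JV001 libraries lay above all sham libraries, and CKD saline library 3 lay above CKD JV001 library 1.

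Some genes stood out in CKD JV001 library 3, and they were chosen here after their values were seen. Its CPM over the mean of libraries 1 and 2 of its group was 170 for Mmp8, 59.9 for Adamts4, 11.8 for Mmp13, 11.3 for Mmp9, 10.6 for Mmp25, 8.70 for Adam8 and 6.13 for Adamts9. The same ratio for CKD saline library 3 was 6.47, 2.48, 19.3, 20.7, 1.20, 4.61 and 3.38, in that order of genes. Mmp8, Mmp9, Mmp25 and Adam8 are known in neutrophils and other white blood cells. The sum of 10 neutrophil markers was 19.2, 20.3 and 305 CPM in CKD JV001, 4.40, 5.31 and 70.2 CPM in CKD saline, 3.65, 7.37 and 6.996 CPM in sham JV001, and 60.6, 2.04 and 0.570 CPM in sham saline. Ly6g, a neutrophil surface protein, was at 0 in all libraries but library 3 of the CKD groups, and Elane was at 0 in all but CKD saline library 3. The part of neutrophils in these genes was not tested.

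**Figure D4:**
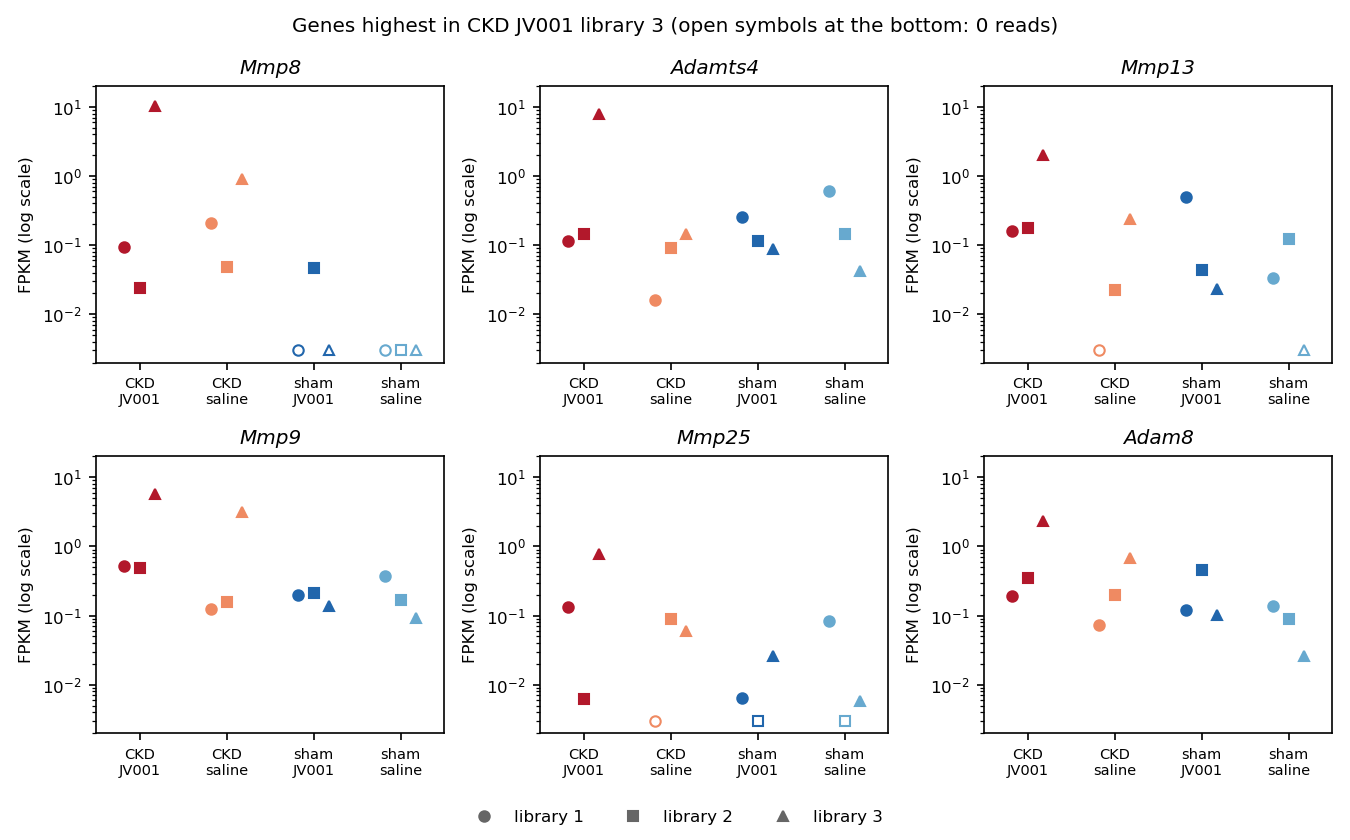
FPKM on a log scale of Mmp8, Adamts4, Mmp13, Mmp9, Mmp25 and Adam8 in each of the 12 libraries (points, shaped by library number; open symbols at the bottom stand for 0 reads). CKD JV001 library 3 is the highest point in each panel, and CKD saline library 3 is second for Mmp8, Mmp9 and Adam8 but not for Adamts4, Mmp13 or Mmp25.

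Among the proteoglycan-cutting ADAMTSs, Adamts1 was by far the most abundant. It had 26.9, 30.7 and 58.0 FPKM in CKD JV001, 31.8, 31.9 and 31.3 FPKM in CKD saline, 30.7, 38.1 and 18.6 FPKM in sham JV001, and 23.2, 24.7 and 23.3 FPKM in sham saline. The CKD saline libraries lay above the sham saline libraries in a narrow range, with a log2 fold change of 0.50 (SE 0.29, adjusted p 0.941 by edgeR). CKD JV001 against CKD saline gave 0.10, and -0.31 without CKD JV001 library 3. Adamts4, an aggrecan- and versican-cutting enzyme that cytokines induce, had 0.113, 0.143 and 7.75 FPKM in CKD JV001 against 0.0163, 0.0897 and 0.144 FPKM in CKD saline, so its log2 fold change of 4.83 (SE 1.64, adjusted p 0.276 by edgeR) was 0.47 without CKD JV001 library 3. It had 0.255, 0.115 and 0.0873 FPKM in sham JV001 and 0.612, 0.146 and 0.0428 FPKM in sham saline, within which no order of groups was seen.

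Adamts5, the other main aggrecan-cutting enzyme, had 3.14, 3.57 and 1.72 FPKM in CKD JV001, 0.533, 0.604 and 2.82 FPKM in CKD saline, 0.843, 1.93 and 1.31 FPKM in sham JV001, and 1.37, 1.22 and 0.482 FPKM in sham saline. Here library 3 of CKD JV001 was the lowest of its group. By edgeR, CKD JV001 against CKD saline gave a log2 fold change of 0.96, and 2.07 without CKD saline library 3 (adjusted p 0.0348). It was 0.60 without CKD saline library 1. Adamts9, which cuts versican, had 2.58, 3.34 and 18.3 FPKM in CKD JV001, 1.44, 1.31 and 5.07 FPKM in CKD saline, 4.23, 3.12 and 3.09 FPKM in sham JV001, and 2.76, 1.09 and 1.55 FPKM in sham saline. All sham JV001 libraries lay above all sham saline libraries, with a log2 fold change of 0.94 (SE 0.73, adjusted p 1 by edgeR). Between CKD JV001 and CKD saline the Adamts9 value was 1.49 (SE 0.73, adjusted p 0.287 by edgeR), and 0.05 without CKD JV001 library 3. Adamts8 and Adamts15 were at most 1.55 FPKM in any library. In CKD JV001 against CKD saline, Adamts8 had a log2 fold change of 1.82 (SE 0.72, adjusted p 0.276 by edgeR), without overlap in CPM. Adamts15 had 0.47 (SE 0.48, adjusted p 0.537 by edgeR), and its groups overlapped.

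Adamts10, which acts on fibrillin microfibrils, had 8.60, 9.90 and 10.02 FPKM in CKD JV001, 2.34, 1.92 and 11.0 FPKM in CKD saline, 3.70, 4.71 and 2.52 FPKM in sham JV001, and 3.62, 2.01 and 1.75 FPKM in sham saline. The CKD JV001 libraries lay close together, while CKD saline library 3 was the highest of the 12 and CKD saline libraries 1 and 2 lay in the range of sham saline. Relative to CKD saline, the log2 fold change was 0.77 by edgeR, and 1.93 without CKD saline library 3 (adjusted p 0.0326). It was 0.41 without CKD saline library 2. Against sham JV001 it was 1.29 (SE 0.56, adjusted p 0.168 by edgeR).

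The 3 procollagen N-proteinases remove the amino-terminal propeptide of fibrillar procollagens. In CKD JV001 against CKD saline, Adamts2 and Adamts14 had positive log2 fold changes and Adamts3 a negative one (-0.62, SE 0.31). Adamts2 had 3.81, 4.03 and 5.79 FPKM in CKD JV001, 0.699, 1.06 and 3.14 FPKM in CKD saline, 1.18, 1.90 and 1.03 FPKM in sham JV001, and 1.54, 1.09 and 0.685 FPKM in sham saline, with CKD JV001 above all other libraries. By edgeR its log2 fold change was 1.33 (SE 0.49, adjusted p 0.276) against CKD saline and 1.64 (SE 0.49, adjusted p 0.106) against sham JV001. The first was 2.14 without CKD saline library 3 (adjusted p 0.0326) and 1.91 without library 3 of both CKD groups (adjusted p 0.0203), both by edgeR. It was 0.99 without CKD saline library 1, where 0 of the genes passed. The block by number in the CKD groups, which was added after seeing the data, gave 1.57 (adjusted p 0.0239 by edgeR). Adamts3 had 0.316, 0.386 and 0.293 FPKM in CKD JV001 and 0.431, 0.762 and 0.612 FPKM in sham JV001, without overlap and with a log2 fold change of -0.94 (SE 0.31, adjusted p 0.116 by edgeR). Adamts14 was at most 0.742 FPKM, with a log2 fold change of 1.53 (SE 0.64, adjusted p 0.276 by edgeR) against CKD saline. Those groups overlapped, and CKD JV001 library 3 held 3.54 times the mean CPM of its libraries 1 and 2. Adamts19, whose substrates are little known, was low in all libraries, with 8, 31 and 43 reads in CKD JV001, 1, 3 and 3 in CKD saline, 39, 39 and 2 in sham JV001, and 57, 8 and 31 in sham saline. Its log2 fold changes by edgeR were 3.14 (SE 1.15, adjusted p 0.276) in CKD JV001 against CKD saline and -3.42 (SE 1.16, adjusted p 0.941) in CKD saline against sham saline, and both rest on those few CKD saline reads.

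Of the 8 sheddase ADAMs tested, all had a positive log2 fold change in CKD JV001 against CKD saline, with a median of 0.62. Adam8 and Adam12 turned negative without CKD JV001 library 3. Of the 8, 1 was higher at an unadjusted p under 0.05 by edgeR, against 9.29% of all genes. This was Adam17, the enzyme that releases TNF and ligands of the EGF receptor. Adam17 had 8.41, 8.55 and 15.0 FPKM in CKD JV001, 5.51, 4.99 and 8.94 FPKM in CKD saline, 6.63, 8.33 and 6.87 FPKM in sham JV001, and 6.46, 7.05 and 6.87 FPKM in sham saline. The CKD saline libraries 1 and 2 were the lowest of the 12. Its log2 fold change was 0.55 (SE 0.24, adjusted p 0.276 by edgeR), 0.80 without CKD saline library 3 (adjusted p 0.0456) and 0.24 without CKD JV001 library 3. Adam10, the sheddase of Notch and cadherins, had 8.37, 9.42 and 12.0 FPKM in CKD JV001, 5.29, 4.57 and 9.01 FPKM in CKD saline, 5.94, 7.08 and 6.68 FPKM in sham JV001, and 8.43, 4.73 and 6.29 FPKM in sham saline. Its CKD saline library 3 lay between CKD JV001 libraries 1 and 2, and the log2 fold change was 0.50.

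Adam15, an ADAM of endothelial and other cells with an integrin-binding motif, was the most abundant ADAM. It had 29.6, 33.6 and 55.6 FPKM in CKD JV001, 9.60, 10.8 and 38.7 FPKM in CKD saline, 20.4, 19.8 and 15.9 FPKM in sham JV001, and 18.9, 6.19 and 8.40 FPKM in sham saline. CKD JV001 lay above all sham libraries, and CKD saline library 3 lay above CKD JV001 libraries 1 and 2. The log2 fold change against CKD saline was 0.87 by edgeR, 1.73 without CKD saline library 3 (adjusted p 0.0376) and 0.55 without CKD JV001 library 3. Adam9, a widely expressed sheddase, had 10.3, 12.2 and 28.3 FPKM in CKD JV001, 9.23, 9.43 and 11.0 FPKM in CKD saline, 11.4, 12.3 and 9.84 FPKM in sham JV001, and 10.3, 11.7 and 10.9 FPKM in sham saline. All libraries but CKD JV001 library 3 were alike, and the log2 fold change of 0.60 (SE 0.30) was 0.01 without that library.

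Adam19, a sheddase of neuregulins known in heart development, was highest in sham saline library 1. It had 2.89, 3.88 and 2.00 FPKM in CKD JV001, 1.60, 1.52 and 2.94 FPKM in CKD saline, 2.87, 3.75 and 2.68 FPKM in sham JV001, and 12.1, 5.01 and 1.84 FPKM in sham saline. The log2 fold change of -1.62 in CKD saline against sham saline (SE 0.56, adjusted p 0.941 by edgeR) was -0.66 without sham saline library 1. The sum of 7 atrial cardiomyocyte markers was 320, 321 and 209 CPM in CKD saline, against 4257, 414 and 1446 CPM in sham saline. It was thus also highest in sham saline library 1, and its part in Adam19 was not tested.

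Adam11, Adam22 and Adam23 lack the catalytic zinc-binding motif and act as adhesion or receptor proteins, best known in the nervous system. Adam11 had 1.81, 1.66 and 1.86 FPKM in CKD JV001, 1.78, 1.95 and 1.54 FPKM in CKD saline, 2.36, 2.81 and 2.81 FPKM in sham JV001, and 3.09, 3.71 and 3.16 FPKM in sham saline. All CKD libraries lay below all sham libraries, and library 3 of the CKD groups did not stand apart. By edgeR the log2 fold change was -0.82 (SE 0.16, unadjusted p 0.000347, adjusted p 0.61) in CKD saline against sham saline and -0.67 (SE 0.16, adjusted p 0.0923) in CKD JV001 against sham JV001. As each library was left out these stayed between -0.93 and -0.68 and between -0.72 and -0.61. Between CKD JV001 and CKD saline it was -0.17 (SE 0.16), and those groups overlapped.

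Adam22 had 0.700, 0.891 and 0.955 FPKM in CKD JV001, 0.934, 0.930 and 0.868 FPKM in CKD saline, 1.18, 1.67 and 1.42 FPKM in sham JV001, and 0.788, 1.09 and 1.16 FPKM in sham saline. Sham JV001 was above the other groups in all its libraries. The log2 fold change by edgeR was -0.84 (SE 0.18, adjusted p 0.0818) in CKD JV001 against sham JV001, 0.50 (SE 0.18, adjusted p 1) in sham JV001 against sham saline and -0.78 (SE 0.25, adjusted p 0.84) for the interaction. The first was -0.83 (adjusted p 0.0288) without CKD saline library 3 and -0.93 (adjusted p 0.016) without library 3 of both CKD groups. Adam23 was at most 0.982 FPKM. Its log2 fold change in CKD JV001 against sham JV001 was 0.87 (SE 0.92, adjusted p 0.534 by edgeR). That value turned negative without library 3 of both CKD groups, so no direction was shown.

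**Figure D5:**
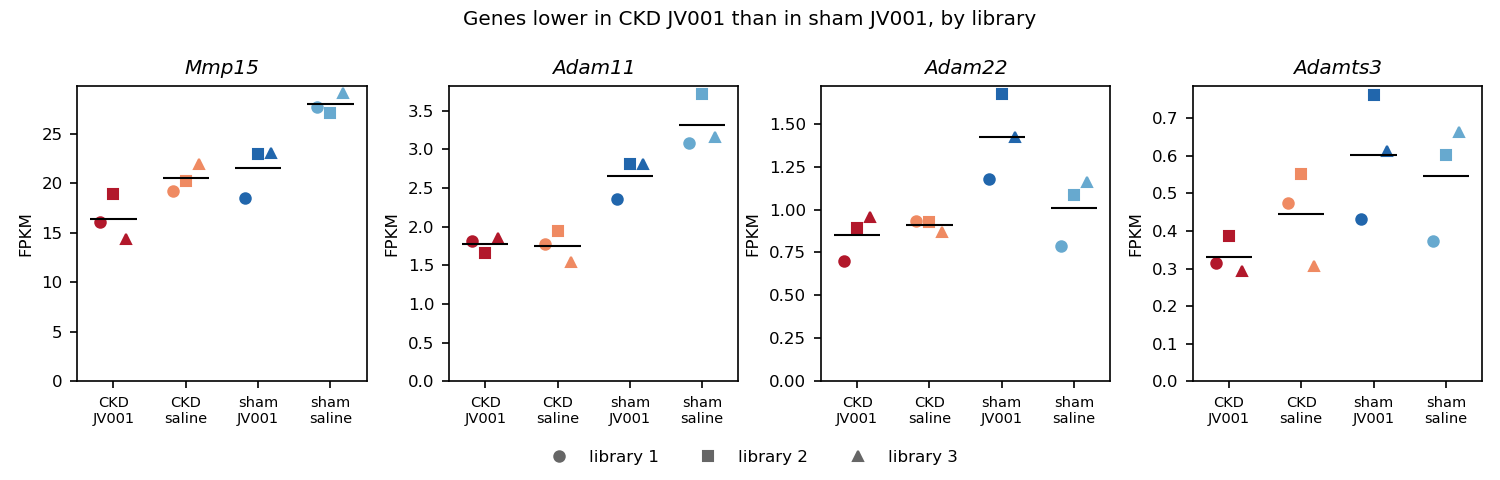
FPKM of Mmp15, Adam11, Adam22 and Adamts3 in each of the 12 libraries (points, shaped by library number) with the group mean (bar), on axes that start at 0. In TMM-scaled CPM these are the 4 genes whose CKD JV001 libraries all lie below all sham JV001 libraries, while in FPKM Mmp15 overlaps at 18.9 and 18.5, and Adam11 has both CKD groups, at 1.54 to 1.95 FPKM, below both sham groups, at 2.36 to 3.71 FPKM.

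The 13 genes that were not tested were Mmp12, Mmp21, Mmp24, Mmp27, Adamts18, Adamts20 and the ADAMs Adam2, Adam4, Adam5, Adam21, Adam28, Adam30 and Adam32. Several of these ADAMs are known from testis. The highest count of any of them in a library was 35, for Adam28 in sham saline library 1, where the rest of its reads were 8 in CKD JV001 library 2. Mmp12, the macrophage elastase, had 25, 6 and 20 reads in CKD JV001, 6, 6 and 2 in CKD saline, 6, 1 and 0 in sham JV001, and 8, 0 and 0 in sham saline. Its counts were highest in CKD JV001 libraries 1 and 3, and differences at such counts were not detectable by this test. Adam1a, which has a close copy in the mouse genome, is uncertain where reads could be split between them.

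Of lists of other genes of the same pathway, 0 genes passed edgeR's test in CKD JV001 against CKD saline. At an unadjusted p under 0.05, 9.29% of all genes were higher and 8.75% lower in that comparison. Of 38 tested regulators of matrix proteolysis, 8 were higher and 2 lower at that level, with a median log2 fold change of 0.92. Reck, a membrane-bound inhibitor of MMPs, was at 11.7 ± 2.64 CPM in CKD JV001, 4.97 ± 3.54 CPM in CKD saline, 3.76 ± 0.825 CPM in sham JV001 and 2.94 ± 1.06 CPM in sham saline (SD, n = 3). Its log2 fold change was 1.23 (SE 0.45, adjusted p 0.276 by edgeR) against CKD saline, and the CKD groups did not overlap. Serpine2, an inhibitor of plasmin and its activators, was at 36.2 ± 10.3 CPM in CKD JV001 and 15.0 ± 8.89 CPM in CKD saline, and Serpina3n, a serine protease inhibitor, was at 155 ± 214 CPM in CKD JV001 and 10.5 ± 9.66 CPM in CKD saline (SD, n = 3).

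Of 34 tested matrix and cell-surface substrates, 12 were higher and 2 lower at that level, with a median of 1.01. This list shares Col1a1, Col1a2 and Col3a1 with the fibroblast markers and Cdh5 with the endothelial markers. Tnf is also in the list of activators and cytokine inducers below. Comp, the matrix protein cut by Adamts7 and Adamts12, was at 23.7 ± 9.02 CPM in CKD JV001, 5.99 ± 5.77 CPM in CKD saline, 1.98 ± 2.05 CPM in sham JV001 and 2.56 ± 0.720 CPM in sham saline (SD, n = 3). Of these enzymes, Adamts7 had a log2 fold change of -0.30 and Adamts12 of 1.68 in CKD JV001 against CKD saline. Dag1, the dystroglycan that MMPs cut at the cell surface, was lower, at 224 ± 37.8 CPM in CKD JV001, 301 ± 55.9 CPM in CKD saline, 358 ± 10.03 CPM in sham JV001 and 390 ± 21.5 CPM in sham saline (SD, n = 3), with a log2 fold change of -0.68 (SE 0.18, adjusted p 0.0937 by edgeR) in CKD JV001 against sham JV001.

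Of 22 activators and cytokine inducers of metalloproteinases, 11 were higher and 0 lower at an unadjusted p under 0.05 in CKD JV001 against CKD saline, with a median of 1.13. Tnf, which Adam17 releases, was at 9.52 ± 9.82 CPM in CKD JV001 and 1.58 ± 0.578 CPM in CKD saline (SD, n = 3), with a log2 fold change of 2.59 (SE 0.77, adjusted p 0.276 by edgeR). Rela, a subunit of NF-kB, was at 78.8 ± 65.8 CPM in CKD JV001 and 27.3 ± 9.69 CPM in CKD saline (SD, n = 3), so that for both genes the SD in CKD JV001 was of the order of the mean. Between CKD JV001 and sham JV001 the counts at that level were 15 higher and 1 lower of 38 regulators, 16 higher and 3 lower of 34 substrates and 10 higher and 0 lower of 22 inducers, against 14.8% and 12.7% of all genes.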

How the data were processed

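Polyadenylated RNA of 12 libraries was analysed. Per the labels' protocols, RNA came from an RNeasy kit and libraries from a VAHTS Universal V6 kit. The deposited counts are whole reads per gene symbol, left unnormalised by the authors. Per the submitters' processing notes the tools were HISAT2, HTSeq and fastp, with GRCm39 as the build. Versions, annotation and strand: not given in the sources used here. FPKM deposited by the authors are of the same reads, and in 100% of 10249 well-counted genes (50 reads or more in every library) they match counts over 1 length per gene, at a tolerance of 0.01. Column initials were matched to the labels, with C read as CKD saline.

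Counts were tested with edgeR 4.0.16 (R 4.3.3) by the quasi-likelihood F test, with TMM factors, filterByExpr (minimum count 10) and 1 fit of 4 group means over all 12 libraries. Benjamini-Hochberg adjustment covered 15004 genes. CPM used TMM factors. Log2 fold changes are from this fit. The test gives no standard error (SE), so each SE is the absolute log2 fold change over the square root of its F statistic. Settings changed in turn were no filter on low counts, a filter of 1 CPM in 3 libraries with 10 reads on average, RLE factors, a replicate block, the compared groups alone, DESeq2 1.42.0, voom with quality weights (limma 3.58.1), limma on log2(FPKM + 1) or log2(FPKM + 0.1) of genes with a mean of at least 0.5 FPKM, each library left out, and library 3 of both CKD groups left out. Replicate numbers were checked by correlating the deviations of same-numbered libraries from their group means. All 3 correlations were over 0.1 between the CKD groups and in no other pair of groups. A block fit of the 6 CKD libraries was therefore added after seeing the data. The main edgeR fit and a limma fit on log2 values were tested on simulated data. That simulation capped the spread and held no library that stood apart, and it did not cover DESeq2, voom or the block fits.

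The genes, the lists and these settings were chosen with earlier results of these data known. Values per library are given for all TIMPs, the 3 MMPs, ADAMTSs and ADAMs of highest mean FPKM, Mmp2, Mmp9, Mmp14, Adam10, Adam17, Adamts1, Adamts4 and Adamts5, and, in each comparison with fewer than 5 calls, the 5 tested genes of smallest p. Up to 4 genes of each pathway list follow the smallest p. Adamts2, Adamts3, Adamts8, Adamts10, Adamts14, Adamts15, Adamts19, Adam11, Adam19, Adam22, Adam23, Mmp3, Mmp8, Mmp12, Mmp13, Mmp17, Mmp19, Mmp23 and Mmp28 were named under these rules or after their values were seen. Promoters are from a RefSeq table of GRCm38.p6, where 35 of the 58 genes matched. Precision is limited by 3 libraries a group, and by counting error at low counts, where 0 reads allow up to 3.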

Additional observations from a re-analysis of the deposited data

How the results depend on the processing

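With edgeR, 0 of the genes passed in each of the 5 comparisons, and 104 of 115 alternative counts stayed there. In CKD JV001 against CKD saline the count was 26 with voom quality weights and 13 without library 3 of both CKD groups, and it ran from 0 to 19 as each library was left out, with 19 without CKD saline library 3. In CKD JV001 against sham JV001 it was 5 in a fit of the compared groups alone, 9 with DESeq2 and 16 with voom quality weights. It was 8 without library 3 of both CKD groups, where 9.38% of all genes passed. It ran from 0 to 10 as each library was left out, with 10 without CKD saline library 3. DESeq2 called 1 gene in CKD saline against sham saline, where 0.282% of all genes passed. In sham JV001 against sham saline voom called 1, where 0.0666% passed. The cause of these differences was not tested. Of 115 alternative medians, 13 moved by more than 0.398, the within-group SD of a library's median log2 CPM. Over the 49 pairs of a named gene and a comparison, direction changed for 4 genes. In CKD saline against sham saline, Timp2 was -0.16 with voom and -0.43 without library 3 of both CKD groups, with -0.43 to 0.56 as each library was left out, and Timp4 was -0.0045 without library 3 of both CKD groups, with -0.0064 to 1.40. In sham JV001 against sham saline, Timp2 ran between -0.18 and 0.46, with -0.18 without sham JV001 library 2 and -0.04 without sham saline library 3. In CKD JV001 against CKD saline, Mmp9 ran between -1.29 and 3.77, and Adamts1 between -0.31 and 0.29, with -0.33 by voom and -0.39 without library 3 of both CKD groups. Over all tested genes, leaving out CKD JV001 library 3 changed the sign of 9 of 45 in CKD JV001 against CKD saline, Mmp8 among them at -2.80 and Adam8 at -0.38, and of 10 of 45 in CKD JV001 against sham JV001, Adamts4 among them at -0.37. Leaving out CKD saline library 3 changed the sign of 20 of 45 in CKD saline against sham saline. The cause was not tested.

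Correlations of the deviations of same-numbered libraries ran from -0.385 to 0.492 over all pairs of groups, with 6 of 18 over 0.1. With the number as a replicate block over all 12 libraries, 0 genes passed in each of the 5 comparisons. With the block in the CKD groups alone, 15 passed in CKD JV001 against CKD saline, and the block changed no other call. The block moved the median log2 fold change to 0.95 in CKD JV001 against CKD saline, to 0.09 in CKD saline against sham saline, to 0.26 in sham JV001 against sham saline and to 0.65 in CKD JV001 against sham JV001. Genes with few reads, such as Mmp8, Adamts19 and the 13 untested ones, are limited by depth.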
